A study of Mus musculus with 384 samples.

Results

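The cells described here are Sca-1-negative cells from mouse hair follicles with low RNA of both Cd34 and Krt79, each a marker of a follicle compartment. They were selected on measured values: a cell entered if 1000 or more of its genes, spike-ins aside, reached 1 TPM (TPM is a transcript's share of a cell's RNA after division by length, scaled to 1000000) and if both Cd34 and Krt79 were below 10 TPM. Of 384 deposited cells 378 passed the gene minimum, 337 of these carried the Sca-1-negative label, and 54.3% of the 337 met both thresholds, 96 cells labelled cKO and 87 labelled dKO. They are called double-low cells below. The other Sca-1-negative cells were 91 with Cd34 at 10 TPM or more, called Cd34-positive, and 63 with Krt79 but not Cd34 at that level, called Krt79-positive.

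All cells came from back skin at postnatal day 70 and were sorted as DAPI-negative, integrin α6-positive and YFP-positive single cells. Both groups carried Sox9-CreER, an inducible Cre driven by Sox9 regulatory sequence, with NFIXfl/fl and the reporter R26-YFPfl/fl. The group labelled cKO was NFIBfl/+ and the group labelled dKO was NFIBfl/fl, so floxed Nfix was shared and the groups differed by the other floxed Nfib allele; the series text calls the group with the single floxed Nfib allele NFIB-cKO. Recombination was not checked in these data, since one value per gene cannot tell a transcript without the floxed exon from an intact one. The number in a cell's title was read as a plate, which gave 3 cKO and 2 dKO plates. No animal is named, so each genotype counted as 1 sample, no test was run, and values are given plate by plate as descriptions that mix technical and animal differences.

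The hair follicle stem cell niche, or bulge, is a ring of slow-cycling keratinocytes below the sebaceous gland. Cd34 is a surface glycoprotein of bulge stem cells in mouse, and Krt79 is a keratin of the upper follicle canal, the infundibulum and sebaceous duct. Between these zones lie the isthmus and junctional zone, where basal cells with Lrig1, Lgr6 or Plet1 reside. Sca-1, the surface protein encoded by Ly6a, is abundant on the upper follicle and epidermis and low on the bulge, which is why it is used to gate bulge cells. Nfib and Nfix encode nuclear factor I (NFI) proteins, which bind DNA as dimers and are expressed in hair follicle stem cells.

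Genes detected were close between double-low cells and the other Sca-1-negative cells pooled, while ribosomal and spike-in shares differed on some plates. Double-low cells had a plate median of 4935 to 5288 genes at 1 TPM or more, against 4682 to 5321 in the other Sca-1-negative cells. Taken apart, Krt79-positive cells had plate medians of 5021.5 to 5926 genes and Cd34-positive cells 4610.5 to 5348.5. The ribosomal row Rn18s-rs5 took 58.5% of TPM in double-low and 53.6% in other cells on cKO plate 1, 58.2% and 54.8% on cKO plate 2, 56.4% and 54.3% on cKO plate 3, 61.02% and 62.4% on dKO plate 1, and 55.7% and 56.3% on dKO plate 2. Spike-ins took 4.15% of TPM in double-low and 5.87% in other cells on cKO plate 1, and 4.55% and 5.62% on cKO plate 2. They took 3.54% and 3.87% on cKO plate 3, 3.40% and 3.61% on dKO plate 1, and 4.14% and 3.37% on dKO plate 2. Read depth is unknown, because TPM keeps none. The labels give all cells as male, yet Xist averaged 46.5 to 64.1 TPM in double-low cells of cKO plates 1 and 2 and dKO plate 1 and at most 0.0513 TPM on cKO plate 3 and dKO plate 2, where Y-linked genes were read instead.

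The thresholds cut through a sparse distribution. Cd34 was listed at 0 in 96 double-low cells and at 1 to 10 TPM in 46; the highest value inside was 6.91 TPM and the lowest outside 11.3 TPM, with 9 outside cells between 10 and 20 TPM. Krt79 was at 1 to 10 TPM in 22 double-low cells, its highest value inside was 8.95 TPM and its lowest outside 11.5 TPM, with 10 outside cells between 10 and 20 TPM. A cell that holds Cd34 RNA but lost it in amplification would be counted as double-low, and how often this happened was not tested.

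Double-low cells made up 53.5% of the Sca-1-negative cells of cKO plate 1 (38 cells, exact 95% interval 41.3% to 65.5%), 59.6% of cKO plate 2 (28 cells, 44.3% to 73.6%) and 46.2% of cKO plate 3 (30 cells, 33.7% to 58.97%). They were 61.3% of dKO plate 1 (57 cells, 50.6% to 71.2%) and 49.2% of dKO plate 2 (30 cells, 36.1% to 62.3%). The plates of the genotypes interleaved, with equal-weight means of 53.1% in cKO and 55.2% in dKO. The intervals cover counting error only.

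**Figure D1:**
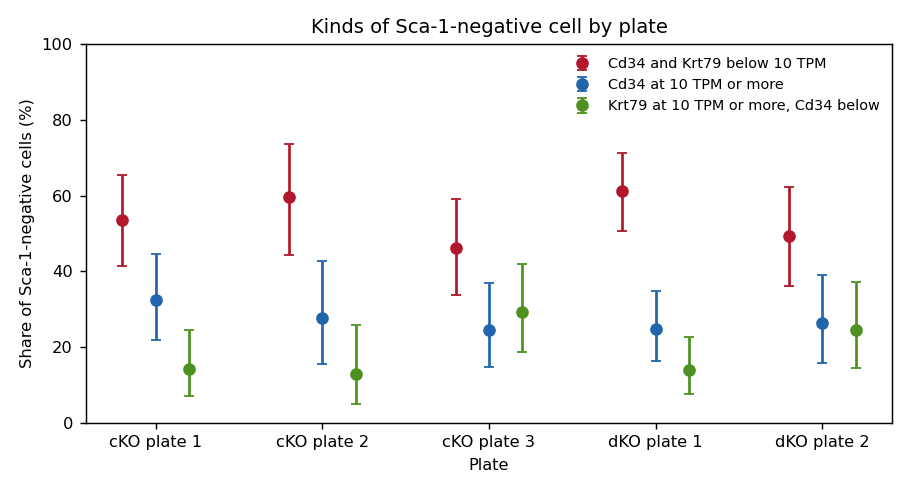
Share of each kind of Sca-1-negative cell (vertical axis, percent) on each plate (horizontal axis), points with exact 95% binomial intervals. Double-low cells were the most frequent kind on each of the 5 plates, from 46.2% on cKO plate 3 to 61.3% on dKO plate 1.

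Genes of basal follicle keratinocytes were present in nearly every double-low cell. Krt5, a keratin of basal keratinocytes, read 798, 1057 and 907 TPM in cKO (plates 1 to 3) and 841 and 979 TPM in dKO (plates 1 and 2), and all but 1 of the double-low cells had it at 10 TPM or more. Itga6, the integrin α6 used in the sort, reached 10 TPM in 89.1% of the cells. Krt15, a keratin of bulge and other follicle basal cells, reached it in 87.4%. Every double-low cell had at least 3 of the 14 basal keratinocyte genes at 10 TPM or more, and 87.98% had at least 3 of the 14 bulge genes.

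Markers of cell types outside the follicle epithelium were not found together in double-low cells. No double-low cell had 3 or more of the 6 fibroblast, 8 melanocyte, 9 immune, 7 endothelial or mural, 7 Schwann or nerve, 6 Merkel or 6 erythroid markers at 10 TPM or more, which leaves an exact upper bound of 2.00% on the share. Single markers were found: the neuregulin receptor gene Erbb3 of the nerve list reached 10 TPM in 94 double-low cells (51.4%, against 41.6% of the other Sca-1-negative cells), the proteoglycan gene Cspg4 of the mural list in 74 (40.4% against 58.4%) and Mitf of the melanocyte list in 34 (18.6% against 48.1%). All 6 Merkel markers were at 0 in each of these cells. The summed TPM by plate ran from 0.132 to 7.04 for fibroblast markers, 4.81 to 17.8 for melanocyte markers (Mitf alone 1.97 to 16.8), 5.41 to 43.5 for immune markers (Cd74 alone 0.373 to 42.4), 8.95 to 16.3 for endothelial or mural markers, 15.5 to 28.7 for nerve markers and 0.0371 to 3.69 for erythroid markers. Ptprc, the pan-leukocyte gene, averaged 0.00527 TPM.

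Set against the other Sca-1-negative cells of their own plate, Ly6a had the highest ratio of the genes named as higher in double-low cells. Their Ly6a read 36.3, 77.1 and 39.6 TPM in cKO (plates 1 to 3) and 47.3 and 37.6 TPM in dKO (plates 1 and 2). The other Sca-1-negative cells averaged 1.52, 4.26, 2.59, 4.90 and 14.7 TPM in the same order. Each plate thus read higher in double-low cells, although these cells had been gated as negative for the Ly6a product (Ly6a, ENSMUSG00000075602, chromosome 15, 74994877 to 74998031, minus strand, GRCm38).

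The ratio for Ly6a was 8.71-fold (log2 3.12, range over the plates 1.30 to 3.89). Single cells spanned a wide range: 90 double-low cells had none, the median was 5.29 TPM and the highest 817 TPM. At 10 TPM or more it was found in 87 double-low cells (47.5%, exact 95% interval 40.1% to 55.04%), in 1 of 91 Cd34-positive cells (1.10%, 0.0278% to 5.97%) and in 14 of 63 Krt79-positive cells (22.2%, 12.7% to 34.5%). The Cd34-positive cells had plate medians of 4610.5 to 5348.5 genes. Since Sca-1 is low on the bulge, their share cannot measure stray Ly6a signal, which was not tested. Cells sorted as Sca-1-positive lay on cKO plate 3 and dKO plate 2, and 39 of the 41 kept ones also met both thresholds of the double-low rule. In those 39 cells Ly6a averaged 71.7 TPM for cKO plate 3 and 131.5 TPM for dKO plate 2, above the double-low cells of the same plates (39.6 and 37.6 TPM), and 35 of them had 10 TPM or more.

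**Figure D2:**
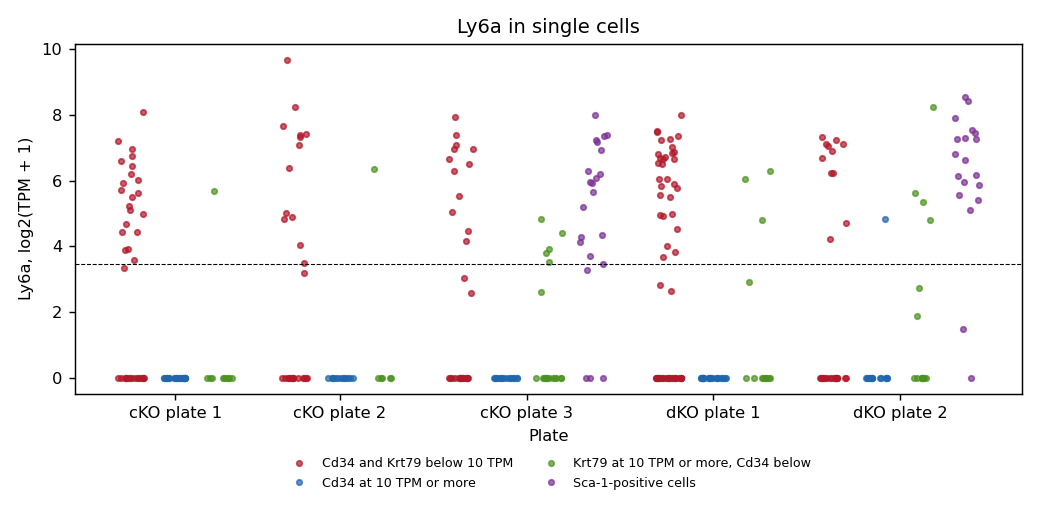
Ly6a in single cells as log2(TPM + 1) (vertical axis) by plate (horizontal axis), one point per cell, coloured by kind of cell, Sca-1-positive cells included; the dashed line is 10 TPM. Of the double-low cells 87 (47.5%) lie at or above the line, against 1 of 91 Cd34-positive and 14 of 63 Krt79-positive cells.

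Over all genes, 7105 averaged at least 5 TPM over the 2 kinds of cell compared, and of these 2.46% were at least 1.5-fold higher in double-low cells and 2.89% (205 genes) at least 1.5-fold lower, pointing one way on all 5 plates on both scales, mean TPM and mean log2(TPM + 1). All ratios carry a pseudocount of 1 TPM. Without dKO plate 2, 355 genes were higher and 352 lower, with 1 plate less required to point the same way. The median gene did not differ (log2 -0.00).

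After Ly6a, the highest ratios named by the rule were those of 9 genes. Dll1, a Notch ligand, averaged 25.2, 48.8, 29.2, 21.2 and 29.8 TPM in double-low cells (cKO plates 1 to 3, then dKO plates 1 and 2) and 5.55, 10.7, 9.15, 6.90 and 7.05 TPM in the others. Its groups did not overlap, and the ratio was 3.53-fold. Smoc2, a secreted calcium-binding matrix protein, averaged 52.6, 91.2, 65.5, 36.5 and 29.99 TPM against 6.68, 37.02, 30.97, 5.30 and 13.2 TPM, a ratio of 3.40-fold. It was found at 10 TPM or more in 69.9% of double-low cells, against 45.4% for Dll1.

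The remaining high genes fell between 2.63-fold and 3.27-fold. Cdca7l, a nuclear MYC-interacting protein, stood 3.27-fold higher and Aldh3a1, an aldehyde dehydrogenase, 2.96-fold. Apcdd1, a membrane inhibitor of Wnt signalling, averaged 59.01 TPM against 20.7 TPM and Scube2, a secreted protein that aids Hedgehog release, 20.5 TPM against 6.67 TPM. Thbs2 (thrombospondin 2) stood 2.82-fold higher, the kinase gene Nuak1 2.80-fold and Bnip3, a mitochondrial receptor for mitophagy, 2.63-fold. Of these genes Aldh3a1 was the one whose level depended most on which cells it was set against: it averaged 72.4 TPM in double-low cells, 4.17 TPM in Cd34-positive cells and 68.5 TPM in Krt79-positive cells.

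The 10 lowest genes marked one or the other of the excluded kinds. S100a4, a calcium-binding protein, read 4.17, 2.00 and 3.41 TPM in cKO (plates 1 to 3) and 14.7 and 24.9 TPM in dKO (plates 1 and 2) in double-low cells. In the other cells it averaged 333, 246, 133.5, 147.98 and 200.2 TPM in the same order. No plate overlapped, and the ratio was log2 -4.70.

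Igfbp3, an insulin-like growth factor binding protein, averaged 1.197 TPM in double-low cells, 82.8 TPM in Cd34-positive cells and 0 in Krt79-positive cells. In the Sca-1-positive cells that met the same thresholds it averaged 170.99 TPM (cKO plate 3) and 193 TPM (dKO plate 2), so its near absence separated double-low cells from those as well. Scrg1 (log2 -3.68), Wfdc3 (-3.62), Sncg (γ-synuclein, -3.52), Dkk3 (a Dickkopf-family secreted protein, -3.44), the chemokine gene Cxcl14 (-3.13), Adamtsl4 (-3.04) and Il31ra (an interleukin 31 receptor subunit, -2.99) also stood lower on all plates. All of these stood high in Cd34-positive cells, and against Krt79-positive cells alone the direction turned for each of the 8 and for S100a4. Defb6, a β-defensin, was the reverse case: it averaged 16.2 TPM in double-low cells, 0.944 TPM in Cd34-positive cells and 397 TPM in Krt79-positive cells.

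**Figure D3:**
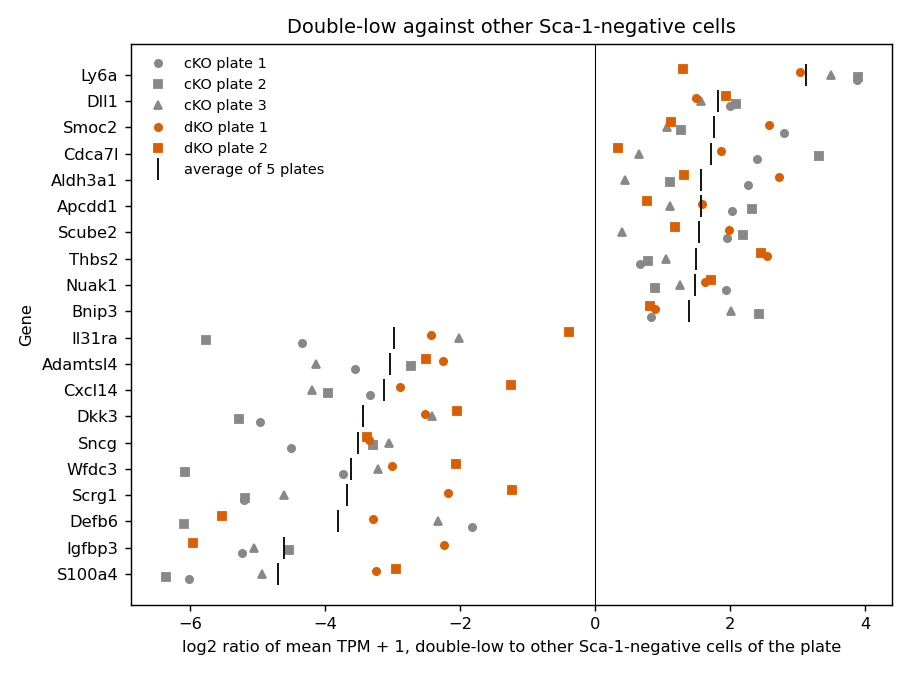
Log2 ratio of mean TPM + 1 of double-low to other Sca-1-negative cells of the same plate (horizontal axis) for the 20 named genes (vertical axis), one symbol per plate and a bar for the average of the 5 plates. Ly6a averages 3.12 and S100a4 -4.70, and every symbol of a gene lies on the same side of 0, which the rule that named the genes required.

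Set against each kind apart, 5.98% of 7162 genes were higher and 6.02% lower than in Cd34-positive cells, and 2.49% of 6873 higher and 2.02% lower than in Krt79-positive cells, by the same rule. Only 18 genes were higher than in both kinds by that rule, and 2 were lower. They were chosen after their values were seen. The 18 held Ly6a, Dll1, Smoc2 and Itga6, the cystathionine β-synthase gene Cbs (16.4 TPM, against 3.50 TPM in Cd34-positive and 1.69 TPM in Krt79-positive cells), Thsd4 (12.7, 0.645 and 5.34 TPM), the tight junction gene Cldn8 (12.8, 2.60 and 6.46 TPM), Socs3, a feedback inhibitor of cytokine signalling (62.8, 12.5 and 32.8 TPM), and the receptor genes Tgfbr2 (7.81, 4.07 and 3.47 TPM) and Lifr (57.2, 31.8 and 32.4 TPM). The 2 lower genes were Angptl2 (4.17 TPM, against 14.2 and 11.2 TPM) and Fam167a (6.20 TPM, against 25.2 and 14.2 TPM).

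Basal keratinocyte genes were level or higher in double-low cells. Of 14 measured, Krt14, Itga6 and Itga3 were higher and none lower, and the median was log2 0.20. Itga6, the hemidesmosome integrin of the sort, averaged 65.8, 57.8, 54.4, 44.3 and 48.3 TPM in double-low cells and 30.2, 31.2, 28.2, 21.6 and 27.9 TPM in the others, a ratio of 1.91-fold that no plate contradicted. Krt14, the partner keratin of Krt5, stood 2.43-fold higher (1057 against 433 TPM), whereas Krt5 itself differed by 1.13-fold. Itga3, an integrin that pairs with Itgb1, stood 2.17-fold higher, and Itgb1 differed by log2 0.12.

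Bulge genes were not uniform. Of 10 measured, Lhx2, Foxp1 and Sox9 were lower and none was higher, with a median of log2 -1.16. Lhx2, a transcription factor of bulge stem cells, averaged 5.88, 1.78, 1.41, 4.06 and 7.16 TPM against 28.6, 28.95, 11.99, 16.7 and 12.8 TPM. Foxp1 stood 2.48-fold lower and Sox9, the factor whose regulatory sequence drives the Cre, 1.86-fold lower (26.8 against 50.8 TPM). Sox9 nonetheless averaged 18.2 to 38.5 TPM by plate in double-low cells and at most 2.96 TPM in the Sca-1-positive cells that met the same thresholds. Krt15 stood 2.01-fold lower than in the other cells (295 against 599 TPM), with the same direction on all 5 plates in mean TPM but not on the log scale. Lgr5, an R-spondin receptor of follicle stem cells, averaged 0, 0.0839, 25.7, 11.1 and 56.5 TPM in double-low cells against 83.7, 169.9, 56.2, 51.7 and 31.9 TPM, lower on 4 plates and higher on dKO plate 2.

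In the upper follicle list, 6 genes were measured. Defb6 and Cst6 were lower and the list median was log2 0.20. Lrig1, a growth-restraining receptor of the junctional zone, averaged 67.4, 98.6, 66.6, 50.3 and 47.9 TPM in double-low cells and 35.4, 23.5, 55.9, 24.7 and 41.3 TPM in the others, 1.84-fold higher in mean TPM on all 5 plates though not on the log scale. It averaged 15.8 TPM in Cd34-positive cells and 69.04 TPM in Krt79-positive cells, against 66.1 TPM in double-low cells. Plet1 (21.2 against 18.1 TPM), Lgr6 (12.6 against 16.5 TPM) and Gata6 (11.8 against 7.72 TPM) did not point one way on all plates.

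Genes of the sebaceous gland (4 measured), the outer root sheath and companion layer (4 measured) and the suprabasal epidermis (7 measured) gave no call. Examples were Mgst1 at 15.9 against 21.7 TPM, Krt17, a keratin of companion and sheath layers, at 575 against 608 TPM and Ly6d at 205 against 147.6 TPM. Of the 3 measured hair germ and hair lineage genes Gata3, a transcription factor of the inner root sheath and epidermis, was 1.95-fold higher. In the Ly6 surface group 2 of 4 were higher, Ly6a and Ly6e. Ly6e followed the Krt79-positive cells, at 235 TPM in double-low, 27.01 TPM in Cd34-positive and 245 TPM in Krt79-positive cells.

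Signalling genes differed mostly where Cd34-positive cells stood high. In the BMP and TGF-β list (8 measured, median log2 -0.47) the BMP target Id2 (5.46-fold), the BMP antagonist Grem1 (5.75-fold) and the related antagonist Nbl1 (3.36-fold) were lower, and Fst (follistatin, an activin antagonist) was 1.97-fold higher. Among 9 measured Wnt genes the inhibitor Sfrp1 was 5.49-fold lower, Dkk3 10.9-fold, the receptors Lgr4 1.75-fold and Fzd7 1.63-fold, and Rnf43, which removes Frizzled receptors from the surface, was 1.93-fold higher. Of 11 measured matrix genes Egfl6 and Sparc were lower and Timp3, a metalloproteinase inhibitor, was 2.40-fold higher (69.2 against 29.7 TPM). In the antigen presentation list H2-D1 was 1.52-fold higher, 1 of 9 measured.

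Immediate early genes, which respond to stress and to tissue dissociation, stood higher as a list than in the pooled other cells (17 measured, median log2 0.80). Atf3 passed the rule (2.52-fold). The list median was log2 1.67, 1.14 and 0.95 on the cKO plates but 0.09 and 0.04 on the dKO plates. Their summed TPM was 4148, 5189, 1958, 2424 and 859 in double-low cells and 1282, 2072, 1045, 2077 and 815 in the others, in the plate order above. Krt79-positive cells alone had sums of 2253, 5117, 1797, 2076 and 1017 TPM, above double-low cells on dKO plate 2. Cd34-positive cells alone read lower than double-low cells on each plate. The part of handling in these values was not tested. Of 12 measured cell cycle genes none passed, with a median of log2 0.79 over the plates that was -0.55 on dKO plate 2. Counted by cell, 41 double-low cells (22.4%) and 28 others (18.2%) had at least 3 of the proliferation genes, Ccnd1 and Ccnd2 left out, at 10 TPM or more. The share was higher in double-low cells on 4 plates and lower on dKO plate 2 (13.3% against 22.6%). None of the 4 NFI genes, 11 lipid synthesis genes or 10 mitochondrial and nuclear RNAs passed: Nfia stood at log2 0.35, Nfib at -0.44, Nfic at -0.04 and Nfix at 0.14. The fibroblast gene Col1a1 (1.91 against 16.4 TPM) and Mitf (8.87 against 37.4 TPM) were lower.

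Double-low cells split by Ly6a. The 87 cells with Ly6a at 10 TPM or more and the 96 below it lay on every plate (21 and 17, 13 and 15, 12 and 18, 30 and 27, 11 and 19 cells in plate order). The genes below were chosen after their values were seen, and cells of one plate are no replicates, so the shares are a description. Median gene numbers were 5138 and 4908, and their part in the shares was not tested.

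Of all 7105 measured genes 55.9% were found in a higher share of the Ly6a-positive cells and 42.4% in a lower share. In the basal keratinocyte list 10 of 14 genes had the higher share and 3 the lower, and in the matrix list 8 and 5 of 14. Krt14 reached 10 TPM in 85 of the 87 Ly6a-positive and 74 of the 96 Ly6a-negative cells, Itga6 in 83 and 80, Smoc2 in 71 and 57, Dll1 in 48 and 35 and Col18a1 in 42 and 22. Trp63, the factor that maintains basal keratinocytes, went the other way (84 and all 96), as did the cadherin gene Cdh3 (49 and 64) and Bgn (21 and 30). All 18 cell cycle genes and 16 of 18 immediate early genes had the higher share with Ly6a. Junb was found in 72 and 54 cells and Mki67, a proliferation marker, in 16 and 6. In the bulge list 10 of 14 genes had the lower share with Ly6a and 3 the higher, and in the Wnt list 11 of 12 had the lower. In the upper follicle list 4 of 6 had the higher share, among them Lrig1 (72 and 72 cells) and Plet1 (36 and 32), and of the bulge genes Krt15 did (78 and 82). Sox9 was found in 45 of 87 and 65 of 96 cells, the calmodulin-like gene Calml3 in 33 and 59, the Wnt receptor Fzd7 in 34 and 60, Cd200 in 18 and 39, Lgr6 in 7 and 24, Tbx1 in 7 and 26, and Synpo2 in 4 and 27. The Hedgehog targets Ptch1 and Gli1 were found in 13 and 30 and in 2 and 15 cells, Krt6a in 6 and 23 and Lhx2 in 2 and 15. Calml3 kept this order on each of the 5 plates (7 of 21 and 9 of 17 cells, 3 of 13 and 6 of 15, 4 of 12 and 11 of 18, 13 of 30 and 16 of 27, 6 of 11 and 17 of 19). Itga6, Dll1 and Sox9 also kept theirs, but not every gene did. Smoc2 turned on cKO plate 3 (7 of 12 and 12 of 18 cells) and Cd200 on dKO plate 2 (7 of 11 and 10 of 19). Plet1 turned on cKO plate 2 (5 of 13 and 8 of 15) and cKO plate 3 (3 of 12 and 8 of 18).

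**Figure D4:**
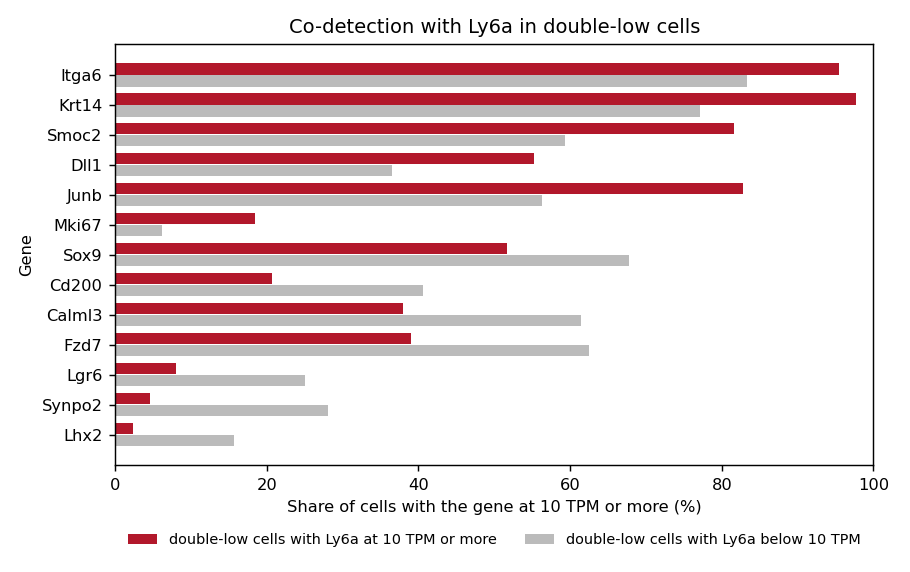
Share of Ly6a-positive (87, red) and Ly6a-negative (96, grey) double-low cells in which a gene reached 10 TPM (horizontal axis, percent) for 13 genes (vertical axis), all plates together. Krt14 was found in 97.7% and 77.1%, Calml3 in 37.9% and 61.5%, and Synpo2 in 4.60% and 28.1%.

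The second comparison set dKO against cKO within double-low cells. The targeted genes came first. Nfib (GRCm38 chromosome 4, 82290173 to 82705750, minus strand) read 57.3, 57.99 and 55.2 TPM in cKO (plates 1 to 3) and 54.5 and 93.3 TPM in dKO (plates 1 and 2), and was at 10 TPM or more in 91 of 96 cKO and 83 of 87 dKO cells. Nfix (chromosome 8, 84699876 to 84800344, minus strand), floxed on both alleles in both groups, averaged 44.1, 48.1 and 44.6 TPM against 33.9 and 35.1 TPM. The ratio of 1.31-fold stayed under the 1.5-fold used for lists. Its plates did not overlap, which held in one direction or the other for 13.8% of measured genes. Nfia (70.8 and 84.98 TPM) overlapped between plates, and Nfic (45.02 and 31.9 TPM) did so on the log scale. Since a deleted exon leaves the rest of a transcript countable, these levels give no check of the genotype labels.

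Of 6993 genes averaging 5 TPM or more, 1.67% were at least 2-fold higher and 2.13% at least 2-fold lower in dKO, with no overlap between plates of the genotypes in either mean. At the 1.5-fold used for lists the shares were 3.66% (256 genes) and 5.19% (363 genes). The median gene stood at log2 -0.07. With plates rescaled by size factors 2.01% of genes were higher and 1.52% lower (median -0.03), and with spike-ins and the 5 most abundant rows removed 3.49% and 2.50% of 11964 (median 0.01), so which direction held more genes depended on the scaling. The counts also moved with single plates: 2.79% were higher without cKO plate 1, 2.67% higher and 3.60% lower without cKO plate 3, 5% higher and 7.58% lower without dKO plate 1, and 4.06% lower without dKO plate 2, each with fewer plates that could overlap. With the highest 5% of cells of each gene left out, 42.7% of the higher and 44.97% of the lower genes still passed, among 4850 genes that stayed measured. In the other Sca-1-negative cells 0.960% of 7189 genes were higher and 2.52% lower by the same rule. Only 8 genes were higher and 8 lower by it in both kinds of cell, and 3 passed in opposite directions. The difference between the 2 kinds of cell was not tested.

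Synpo2, which encodes an actin-binding protein of muscle and stress fibres, had the highest ratio among named genes. It read 3.11, 2.65 and 2.58 TPM in cKO (plates 1 to 3) and 32.4 and 34.7 TPM in dKO (plates 1 and 2) (9.13-fold, log2 3.19). It was found at 10 TPM or more in 5 of 96 cKO and 26 of 87 dKO cells, so the plate means rest on a minority of cells, the highest at 389 TPM. In the other Sca-1-negative cells it had a mean of 6.26 TPM for cKO and 15.3 TPM for dKO (log2 1.16).

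Wif1, a secreted Wnt inhibitor, averaged 2.50, 0.270 and 2.94 TPM against 15.4 and 29.4 TPM, and was found in 5 of 96 and 20 of 87 cells. Tbx1, a transcription factor of bulge stem cells, averaged 2.02, 0.538 and 3.87 TPM against 13.8 and 29.5 TPM (7.20-fold), and stood at log2 -0.27 in the other cells, where it was high in both genotypes (62.8 and 51.9 TPM). The TGF-β ligand gene Tgfb2 averaged 19.8, 4.89 and 6.66 TPM against 43.6 and 73.2 TPM (5.19-fold), and stood at log2 0.20 in the other cells.

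The other higher genes were Cyp2b19, a cytochrome P450 of keratinocytes (7.75-fold), Tnfrsf11b (osteoprotegerin, 5.37-fold), Cxcl14 (5.13-fold, 43.5, 34.3 and 11.6 TPM against 78.04 and 236 TPM), the Slit receptor Robo2 (4.05-fold), Creb5 (4.02-fold) and Igfbp7 (3.40-fold). Several rested more on one dKO plate: without dKO plate 2 the log2 ratio was 1.72 for Cyp2b19 against 2.95 over all plates, 1.36 for Cxcl14 against 2.36, 1.28 for Creb5 against 2.01 and 2.23 for Tbx1 against 2.85. Without cKO plate 1 it was 3.13 for Tgfb2, 2.63 for Robo2 and 2.79 for Igfbp7, and without cKO plate 3 it was 3.03 for Tnfrsf11b. Within double-low cells the directions of all 10 were the same on the Xist plates alone and on the Y plates alone. The rule of no overlap between plates already required this.

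Acsbg1, an acyl-CoA synthetase for long and very long chain fatty acids, had the lowest ratio. It read 71.1, 62.6 and 55.1 TPM in cKO (plates 1 to 3) and 6.53 and 0.849 TPM in dKO (plates 1 and 2), a 13.6-fold difference (log2 -3.77). It was found in 35 of 96 cKO and 9 of 87 dKO cells. The other Sca-1-negative cells showed the same direction, from 41.1 TPM (cKO) to 3.82 TPM (dKO). Without dKO plate 1 the log2 ratio was -5.11, and without dKO plate 2 it was -3.09.

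Tnfaip3, which encodes the NF-κB inhibitor A20, averaged 23.7, 74.7 and 14.9 TPM against 12.2 and 6.22 TPM (3.79-fold), but without cKO plate 2 its log2 ratio was -0.99, short of 2-fold. Ipmk, an inositol phosphate kinase, likewise stood at -0.88 without cKO plate 1. The transporter Slco2b1 averaged 25.8, 34.1 and 34.99 TPM against 9.79 and 7.11 TPM, and the cytochrome P450 gene Cyp4b1 17.9, 34.9 and 33.5 TPM against 7.50 and 8.01 TPM. Cyp4b1 was lower in the other cells too (37.1 and 1.94 TPM).

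Klf6 (2.84-fold), Nfkbiz (2.80-fold), the RNA-binding protein gene Rbms3 (2.74-fold), the mitochondrial carrier Slc25a24 (2.72-fold) and Tmem45a (2.71-fold) completed the lower genes. Without dKO plate 1 Nfkbiz stood at log2 -2.41 against -1.49 over all plates. Tmem45a averaged 163.1, 149.6 and 189 TPM against 77.9 and 44.1 TPM in double-low cells and stood at log2 0.07 in the other cells. Immediate early genes, a list to which Klf6 belongs, had the summed TPM in double-low cells given above, with dKO plate 2 at 859 and dKO plate 1 at 2424, between cKO plate 3 at 1958 and cKO plate 1 at 4148. Their part in the lower values of Klf6, Nfkbiz and Tnfaip3 was not tested.

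**Figure D5:**
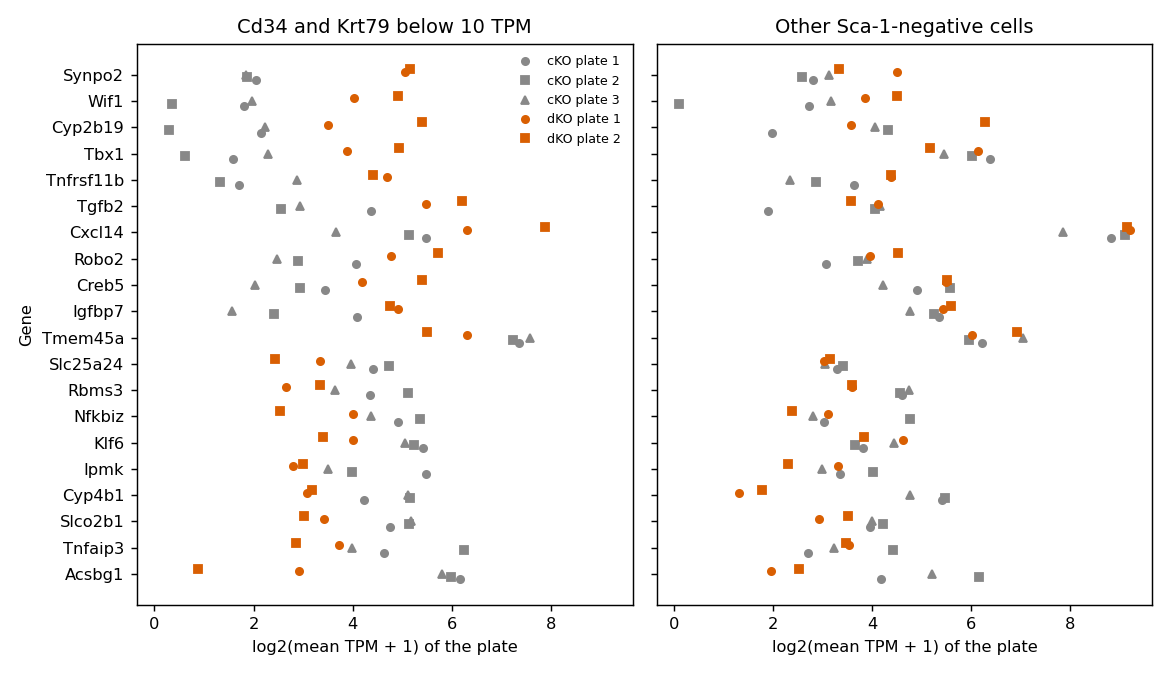
Plate means as log2(mean TPM + 1) (horizontal axis) of the 20 genes named for dKO against cKO (vertical axis), in double-low cells (left) and in the other Sca-1-negative cells (right); grey cKO, orange dKO. On the left no gene's plates overlap between genotypes, which the rule that named the genes required. On the right the rule required nothing. Tgfb2 and Tmem45a are examples of overlap there, with log2 ratios of 0.20 and 0.07, and the ratio of Tbx1 points the other way. Of all measured genes 8 were higher and 8 lower by the rule in both kinds of cell.

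Since the mice were built to lack NFI proteins, the promoters of the 2 highest and 2 lowest named genes are printed with any NFI core motif. They run from 250 bases before to 50 bases after the start, from RefSeq on GRCm38.p6, and all 4 genes had an entry: Synpo2 at chr3:123236100-123236399 (minus strand), Wif1 at chr10:121033754-121034053 (plus), Acsbg1 at chr9:54661836-54662135 (minus) and Tnfaip3 at chr10:19015361-19015660 (minus, the first of its 2 listed starts). Each is written 5′ to 3′ along the gene, and capitals mark the core motif TTGGC or its reverse complement GCCAA.
Synpo2 promoter: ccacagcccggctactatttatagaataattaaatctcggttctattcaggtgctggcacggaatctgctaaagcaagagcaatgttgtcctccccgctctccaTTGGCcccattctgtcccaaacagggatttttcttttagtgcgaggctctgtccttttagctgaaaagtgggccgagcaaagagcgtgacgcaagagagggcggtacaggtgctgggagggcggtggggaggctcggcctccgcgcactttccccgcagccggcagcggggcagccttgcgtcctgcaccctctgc
Wif1 promoter: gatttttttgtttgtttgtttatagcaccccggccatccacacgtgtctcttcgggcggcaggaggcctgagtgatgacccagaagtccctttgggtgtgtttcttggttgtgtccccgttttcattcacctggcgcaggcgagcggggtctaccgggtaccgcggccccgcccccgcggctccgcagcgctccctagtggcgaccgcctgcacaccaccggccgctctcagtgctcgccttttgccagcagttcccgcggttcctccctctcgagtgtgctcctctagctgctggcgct
Acsbg1 promoter: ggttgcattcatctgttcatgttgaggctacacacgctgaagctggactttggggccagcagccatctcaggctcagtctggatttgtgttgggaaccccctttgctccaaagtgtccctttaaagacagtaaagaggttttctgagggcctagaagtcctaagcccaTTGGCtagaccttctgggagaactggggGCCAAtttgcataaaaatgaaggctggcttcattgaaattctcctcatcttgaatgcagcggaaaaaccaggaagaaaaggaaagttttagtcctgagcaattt
Tnfaip3 promoter: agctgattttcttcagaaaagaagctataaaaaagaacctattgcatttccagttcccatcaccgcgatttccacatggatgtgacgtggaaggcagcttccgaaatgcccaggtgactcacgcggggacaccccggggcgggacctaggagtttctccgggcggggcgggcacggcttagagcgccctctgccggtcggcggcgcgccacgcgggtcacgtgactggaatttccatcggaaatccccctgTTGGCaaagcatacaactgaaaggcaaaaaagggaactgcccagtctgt
Synpo2 had 1 core motif, Wif1 none, Acsbg1 2 and Tnfaip3 1. None held the full palindrome, a core motif followed by its reverse complement 5 bases on. Of all 32851 promoters of this length in that set, 46.7% held a core motif on either strand and 0.0365% a palindrome, so a core motif in 3 of 4 windows is a description of their letters and not of binding. The Tbx1 and Tgfb2 windows were not searched.

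The genes that differed between genotypes in double-low cells were sorted by whether they averaged higher, by any amount, in Cd34-positive or in Krt79-positive cells. Among all 6993 measured genes 48.3% averaged higher in Cd34-positive than in Krt79-positive cells of the cKO plates. Among the genes at least 2-fold higher in dKO double-low cells 75.2% did (88 genes), and among the lower genes 30.9% did (46 genes). Of the 10 named higher genes 9 lay on the Cd34-positive side, all but Cyp2b19, and of the 10 named lower genes 8 lay on the Krt79-positive side, all but Cyp4b1 and Rbms3. These comparisons share the cKO plates but not the cells.

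Counted by cell, at least 3 of the 10 named higher genes reached 10 TPM in 6 of 38, 2 of 28 and 4 of 30 cKO double-low cells and in 26 of 57 and 23 of 30 dKO double-low cells. The genes were chosen for their difference, so the gap between genotypes is a description. In Cd34-positive cells the counts were high in both genotypes, 46 of 52 in cKO and 37 of 39 in dKO, and in Krt79-positive cells 0 of 35 and 8 of 28. Of the 49 dKO double-low cells with 3 or more, 18 had Cd34 at 0. The others had it below 10 TPM, which the rule required of every double-low cell. In cKO 7 of the 12 such cells had Cd34 at 0. Among all double-low cells Cd34 was at 0 in 38 of 87 dKO and 58 of 96 cKO cells. How far cells near the Cd34 threshold set these values was not tested. With the thresholds at 1 TPM the log2 ratio was 2.42 for Synpo2, against 3.19, and 0.999 for Creb5, against 2.01. The other named higher genes are not listed at that threshold.

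In the bulge list 9 genes were measured in this comparison, and Tbx1, Cd200 and Runx1 were higher in dKO and Krt15 lower (median log2 0.92). Cd200, a surface glycoprotein of bulge cells, averaged 9.85, 34.2 and 12.5 TPM against 36.04 and 55.3 TPM. Krt15 averaged 259.5, 545 and 329 TPM against 127.9 and 213 TPM (2.21-fold), and was lower in the other cells too (793 and 310 TPM). Of 14 basal genes Krt14 was lower (1.64-fold), and of 5 upper follicle genes Plet1 (1.57-fold) and Lgr6 (1.67-fold). Krt17 averaged 582, 286 and 242 TPM against 865 and 900.3 TPM and was the 1 of 4 genes of its list that passed.

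Of 7 suprabasal genes Krtdap (2.60-fold) and Sbsn (1.79-fold), both differentiation products of epidermis, were higher and Dsg1a (1.66-fold) and Ly6d (1.59-fold) lower. Sbsn stood at log2 -0.58 in the other cells. Ccnd1, cyclin D1, averaged 17.5, 27.03 and 29.4 TPM against 36.7 and 45.8 TPM and was the only one of 12 cell cycle genes to pass, while the list's median was log2 -0.74. Of 17 immediate early genes Klf6, Egr2 and Klf4 were lower (median log2 -1.24).

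Matrix genes read higher in dKO in 4 of 10 cases and lower in none. Tnc (tenascin C) averaged 6.84, 3.01 and 0.567 TPM against 24.9 and 27.5 TPM and Bgn (biglycan) 13.05, 12.6 and 15.2 TPM against 26.8 and 58.98 TPM. Both stood higher in the other cells as well (log2 1.99 and 1.84). Timp3 (1.70-fold) and Sparc (1.58-fold) followed. In the Wnt list 2 of 7 were higher, Wif1 and Znrf3 (1.54-fold), and Tgfb2 was the 1 of 6 BMP and TGF-β genes that passed. Scd2, a fatty acid desaturase, was 2.49-fold higher among 12 lipid genes, of which Acsbg1 was lower. Among antigen presentation genes Cd74, H2-Ab1 and Tap1 were lower. Cd74, the class II invariant chain, was found in 15 of 96 cKO and 5 of 87 dKO cells, with single cells up to 689 TPM, so its plate means rest on few cells. No sebaceous, hair lineage, NFI or RNA quality gene passed.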

How the data were processed

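Per the labels' protocols, single sorted cells were lysed in 96-well plates, amplified by Smart-seq2, tagmented and sequenced in pairs. That protocol is unstranded and has no molecular identifiers, so overlapping and antisense genes cannot be told apart. The authors deposited TPM per gene and cell, each column summing to 1000000 over 46609 rows with 92 ERCC spike-ins, per the values. The submitters' processing notes name Bowtie2 2.2.9, RSEM 1.2.30 and mm10 (GRCm38). RSEM divides reads shared by near-identical genes by a model, so values of gene families such as Ly6, defensin, cytochrome P450 and keratin genes depend on it. Read depth cannot be had from TPM; genes detected per cell were used in its place.

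Rows of one symbol were summed. Mean TPM was taken over the cells of a kind on a plate, and plates were weighted equally. Ratios were taken after adding 1 TPM, on the log2(TPM + 1) scale, so low genes differ by more than their ratio shows. The rules describe sizes and are no tests. Intervals are exact (Clopper-Pearson) and, like the floor of a count of 0, cover counting error only. No column was identical to another (highest correlation 0.73), and no doublet caller was run on singly sorted cells.

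The double-low cells and the 24 gene lists (241 genes, all found) were chosen with earlier results of these data known. Named were the 10 highest and 10 lowest ratios past each rule with at least 20 TPM and 25% positive cells in the higher group, leaving out predicted, mitochondrial and ribosomal protein genes, Cd34 and Krt79. Further named were Krt15, Krt5, Itga6, Ly6a, the NFI family and up to 4 genes of each list past the 1.5-fold rule, or else the 2 with the highest TPM. A single list gene that passed is not reported here. The alternatives were other thresholds, filters, pseudocounts, scalings and ratios, each kind of other cell alone, Xist or Y plates alone, and leaving out each plate. Coordinates are from GENCODE M21. Python 3.11.15, numpy 2.4.6, pandas 2.3.3 and scipy 1.17.1 were used, with matplotlib 3.10.9.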

Additional observations from a re-analysis of the deposited data

Results flagged for a closer look

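Cd74, which encodes the invariant chain of class II antigen presentation, stood higher in double-low than in other Sca-1-negative cells on the cKO plates (mean log2 ratio 1.96) and lower on the dKO plates (mean -1.91), a difference of -3.87. It was picked out because every cKO plate moved one way and every dKO plate the opposite way; the difference was not tested. Cd74 reached 10 TPM in 20 double-low cells (10.9%), its highest value was 689 TPM, and Ptprc averaged 0.00527 TPM in these cells.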

How the results depend on the processing

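With both thresholds at 1 TPM double-low cells were 37.6% of the cKO and 33.8% of the dKO cells, and 1.65% of genes stood higher than in other cells. The shares of genes below are higher and lower against other cells, then higher and lower in dKO, and a shift was judged on the number of genes. They were 1.21%, 1.41%, 0.501% and 0.415% with a pseudocount of 10 TPM, 3.27%, 2.79%, 1.03% and 1.52% of the fewer genes of at least 20 TPM, 0.725%, 0.899%, 0.860% and 0.766% of all 46495 symbols with no filter on low values, and 2.45%, 2.94%, 3.49% and 2.50% with spike-ins and the 5 most abundant rows removed. A ratio of 2 gave 0.971% and 1.55% against other cells, and Cd34-positive cells alone 5.98% and 6.02%. For dKO against cKO a ratio of 1.5 gave 3.66% and 5.19%, and a ratio of 3 gave 0.744% and 0.501%. Leaving out the highest 5% of cells per gene left 1.92% lower, the Xist plates alone 5.66% lower, and the Y plates alone, 1 plate per genotype, 10.2% higher and 8.52% lower. Leaving out 1 plate at a time gave double-low shares of 49.8% to 56.5% in cKO and 49.2% to 61.3% in dKO, 3.23% to 5.01% of genes higher and 3.34% to 4.97% lower than other cells, and 1.29% to 5% higher and 2.57% to 7.58% lower in dKO. Fewer plates make the plate condition easier to meet; the cause of the other shifts was not tested.

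The direction turned for Defb6 against Cd34-positive cells alone (log2 2.52). Against Krt79-positive cells alone it turned for S100a4 (1.26), Igfbp3 (0.88), Scrg1 (1.41), Wfdc3 (0.59), Sncg (0.44), Dkk3 (1.36), Cxcl14 (2.42), Adamtsl4 (1.41) and Il31ra (1.56). For the 20 named genes of each comparison, the first gave 375 values within the spread of plates, 35 beyond it and 10 turned, and the second 409 within, 51 beyond and 0 turned. Without 1 plate, Wfdc3 stood at -3.01 and Il31ra at -2.29 (cKO plate 2), Igfbp3 at -5.20 (dKO plate 1), and Scrg1 at -4.30 and Il31ra at -3.64 (dKO plate 2). Among dKO genes Cyp2b19 stood at 3.61 and Cxcl14 at 2.94 without dKO plate 1. No paired analysis was possible because the labels name no animal and no test was run. Dropping the gene minimum was run for the double-low shares alone. Unknown read depth limits all genes near 1 TPM.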
